A study of Homo sapiens with 12 samples.

Results

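Messenger RNA and ribosome footprints of 44 genes of central carbon metabolism were examined in HepG2 cells, a human line derived from a liver tumour. The genes were chosen by name: 20 of glucose uptake and glycolysis, 6 of gluconeogenesis, and 18 of the pyruvate dehydrogenase complex and the TCA cycle. The last group also lists the cytosolic enzymes IDH1 and MDH1. All members together are 44 of the 58721 genes in the deposited tables. The rule uses names only, though the list was drawn up with earlier results of these data known. Enough reads for a test were present for 42 of the 44 in every comparison. LDHB and FBP1 were the exceptions.

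Glycolysis splits glucose into pyruvate in the cytosol, and lactate dehydrogenase turns pyruvate into lactate. Gluconeogenesis runs the route towards glucose through bypass steps catalysed by pyruvate carboxylase, phosphoenolpyruvate carboxykinase, fructose-1,6-bisphosphatase and glucose-6-phosphatase, and is a hallmark of the liver. The pyruvate dehydrogenase complex feeds acetyl-CoA into the TCA cycle, which oxidises it in mitochondria.

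HepG2 cells were transfected with a control siRNA (siControl) or with an siRNA against IGF2BP3, an RNA-binding protein (siIGF2BP3). Cells of both groups received 100 µg/mL cycloheximide for 4 min at 2 days after the knockdown, and were lysed. From each group came 3 Input libraries, which report RNA abundance, and 3 RPF libraries, which hold ribosome-protected fragments of 28 to 30 nt left after RNase I digestion. The knockdown was transient and in 1 cell line, and nothing states that the 3 libraries of a group came from separate cultures, so p-values measure only the spread between these libraries.

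Libraries held 11219750 to 31510601 counts. IGF2BP3 itself was at 127 to 133 CPM (counts scaled to a library total of 1e+06) in siControl Input and 97.9 to 105 CPM in siIGF2BP3 Input, and at 74.6 to 78.1 against 21.9 to 28.0 CPM in RPF. The hepatocyte markers ALB, AFP, APOA1, TTR, SERPINA1, FGB, TF and HNF4A were present, as was APOB at 21537 to 23215 CPM in siControl Input, whereas PTPRC, which marks leukocytes, was at 0 in all Input libraries. Of the other markers of non-hepatic cells, CD68 was at 21.1 to 24.8 CPM, ACTA2 at 32.8 to 33.7 CPM and PECAM1 at 1.12 to 1.98 CPM in siControl Input, and VWF, COL1A1, COL1A2 and KRT5 were at or below 0.719 CPM. Over all genes, siControl RPF replicates 2 and 3 differed by less than the sampling noise (mean chi-square 0.941). Over the 42 members the value was 1.34. They were counted as 1 sample in that group's mean and SD, so n = 2 there. The tests kept them as 2 libraries, so p-values from RPF libraries treat them as independent, and calls with them summed are given below. siIGF2BP3 RPF replicates 2 and 3, at 1.15 over all genes and 5.56 over the members, were kept as 2 samples. siIGF2BP3 RPF replicate 1 stood apart, with a mean chi-square of 19.8 and 21.5 against replicates 2 and 3, and counts and calls that rest on siIGF2BP3 RPF are given with and without it.

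Many glycolytic genes have processed pseudogenes, intronless copies of their mRNA inserted elsewhere in the genome, and a footprint is short enough to match both. To show the size of the problem, every run of 29 bases in each coding sequence was searched for exact copies elsewhere in hg38 on both strands. For each of 4 genes, the run with the most copies among those within 1 exon is printed here from the hg38 genome. For PCK1 and G6PC3, which matter below, the first run with no copy is shown.

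GAPDH, coding bases 351 to 379, plus strand, chr12:6537124-6537152: aagggtcatcatctctgccccctctgctg
LDHA, coding bases 883 to 911, plus strand, chr11:18407165-18407193: ttgggacagaatggaatctcagaccttgt
TPI1, coding bases 191 to 219, plus strand, chr12:6868939-6868967: cgcagaactgctacaaagtgactaatggg
PGAM1, coding bases 599 to 627, plus strand, chr10:97432358-97432386: tctctgaagaggctatcatggagctgaac
PCK1, coding bases 1 to 29, plus strand, chr20:57561412-57561440: atgcctcctcagctgcaaaacggcctgaa
G6PC3, coding bases 1 to 29, plus strand, chr17:44070966-44070994: atggagtccacgctgggcgcgggcatcgt

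The GAPDH run had 10 exact copies outside its locus, the PGAM1 run 9, the LDHA run 4 and the TPI1 run 3. Copies were found for 100% of PGAM1 runs, 68.5% of GAPDH runs, 68.0% of TPI1 runs, 53.4% of CS runs, 51.2% of LDHA runs and 47.6% of SUCLG2 runs. For 20 of the 44 members no run had a copy. PCK1 and G6PC3 were among these.

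The RNA levels were compared first, per exon length as TPM (CPM-like values corrected for transcript length). The most abundant members in siControl Input were GAPDH and ENO1 in glycolysis, PCK2 and PCK1 in gluconeogenesis, and IDH1 and PDHA1 in the pyruvate dehydrogenase and TCA group. The median over the 44 members was 70.8 TPM. All members together took 1.26% ± 0.0254 of the Input counts in siControl (SD, n = 3), of which glycolysis held 1.04%, the TCA group 0.176% and gluconeogenesis 0.0454%.

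**Figure D1:**
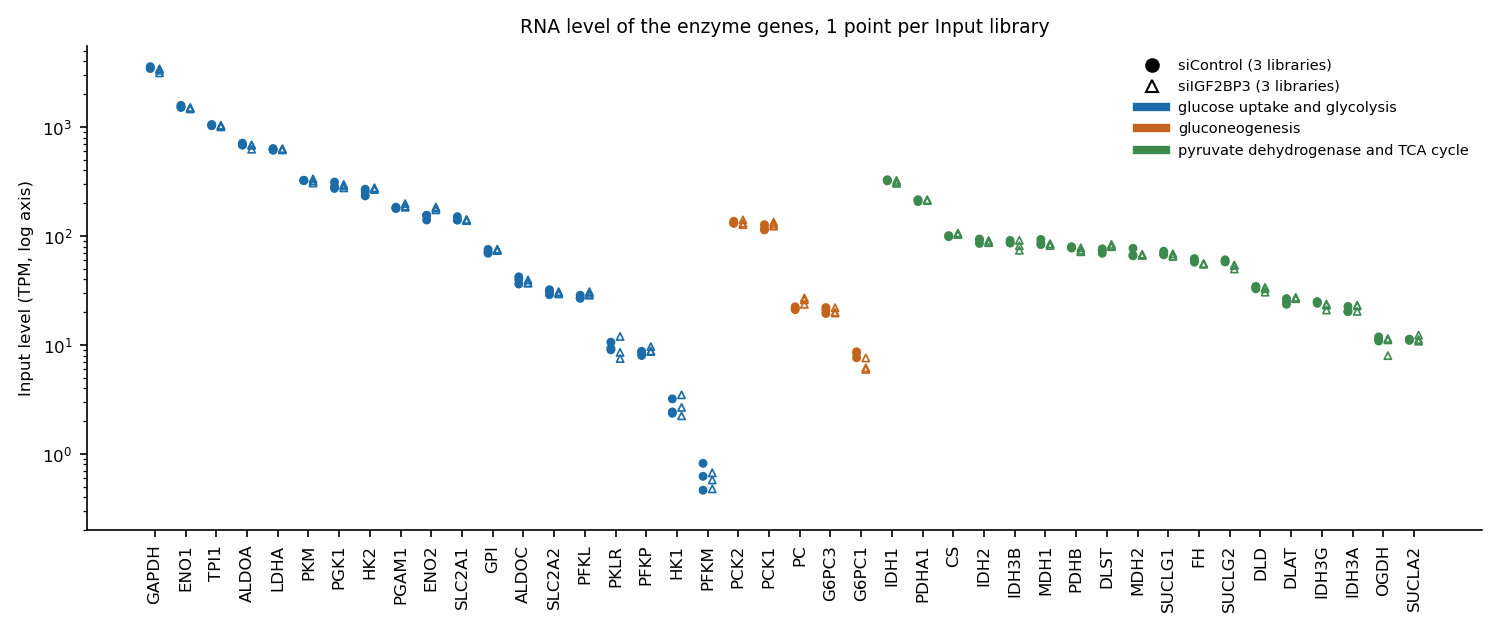
RNA level of 42 enzyme genes in the 6 Input libraries, in TPM on a log axis, with filled circles for siControl and open triangles for siIGF2BP3, 1 point per library. Levels ran from 3497 TPM for GAPDH to 0.636 TPM for PFKM in siControl (means of 3 libraries), and LDHB and FBP1 are not drawn.

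For most steps with several isoenzymes, 1 gene took the greater part of the Input TPM. HK2, a hexokinase abundant in tumours, held 99.0% ± 0.119 of the sum of HK1 and HK2 in siControl (SD, n = 3). PFKL, the liver phosphofructokinase, held 75.2% ± 1.23, PFKP 23.1% and the muscle form PFKM 1.74%. ALDOA held 94.6% of the sum with ALDOC, and ENO1 91.1% of the sum with ENO2. PKM held 97.1% of the pyruvate kinase sum, with the liver gene PKLR at 2.90%. Of the sum of the transporters SLC2A1 (GLUT1) and SLC2A2 (GLUT2, the hepatocyte form), SLC2A1 held 82.4% ± 1.31 and SLC2A2 17.6%. SLC2A3, described below and not a member, was above both. Thus the genes usually dominant in adult hepatocytes, PKLR and SLC2A2, were the lesser ones by RNA in these cells.

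LDHA, which encodes the M subunit of lactate dehydrogenase, was at 1071 to 1102 CPM in siControl Input. LDHB, which encodes the H subunit, had no count in any Input library. A floor of 3 counts over the 3 siControl Input libraries corresponds to 0.0752 CPM. In RPF, LDHB held 1.25 counts in siControl and 0 in siIGF2BP3. FBP1, the fructose-1,6-bisphosphatase of liver, held 2 counts in siControl Input and 4 in siIGF2BP3 Input, and 5 and 8 counts in the RPF libraries. It was thus at or near the floor, so no fold is given for either gene. Estimates for them came only from the setting without a count filter. Floors cover counting error only.

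In gluconeogenesis the mitochondrial PCK2 and the cytosolic PCK1 were close, with 52.7% and 47.3% ± 0.875 of their summed TPM, and the order turned when coding length replaced exon length (PCK1 60.0%). This was the 1 of 13 isoenzyme sets whose leading gene depended on the length used, though shares in other sets also moved. G6PC3, the widely expressed glucose-6-phosphatase, held 71.6% ± 2.55 and the liver enzyme G6PC1 28.4%. In the TCA group IDH1, the cytosolic NADP-dependent isocitrate dehydrogenase, held 78.2% of the sum with its mitochondrial counterpart IDH2. Among the subunits of the NAD-dependent enzyme IDH3B held 65.8%, IDH3G 18.4% and IDH3A 15.8%. By coding length IDH3B held 51.0%, IDH3A 34.2% and IDH3G 14.8%, so the order of the lesser subunits turned. SUCLG2, the GTP-specific beta subunit of succinyl-CoA ligase, held 84.0% and the ATP-specific SUCLA2 16.0% (66.1% and 33.9% by coding length). MDH1 and MDH2, the cytosolic and mitochondrial malate dehydrogenases, held 55.7% ± 0.979 and 44.3%. The remaining members, GPI, TPI1, PGK1, PGAM1, PC, PDHB, DLAT, DLD, CS, OGDH, DLST, SUCLG1 and FH, had no alternative gene in the list for their step or subunit.

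How footprints related to RNA in unperturbed conditions was asked in siControl cells, where the RPF share of each gene was set against its Input share. The log2 ratio is 0 when a gene takes the same share of both after scaling. Input reads can fall anywhere in the transcript and footprints on the coding part, so the ratio also carries the coding share of the mRNA, and it was not corrected for that. RPF exceeded Input in 33 of 42 members, against 44.7% of all 13395 genes tested, and was below it in 8, against 44.4% (edgeR quasi-likelihood test, adjusted p under 0.05). The median log2 ratio of the members was 0.91, that of all tested genes 0.00. The TCA group had a median of 1.08, with 17 of 18 members higher, glycolysis 0.84, with 13 of 19 higher, and gluconeogenesis 1.24, with 3 of 5 higher.

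**Figure D2:**
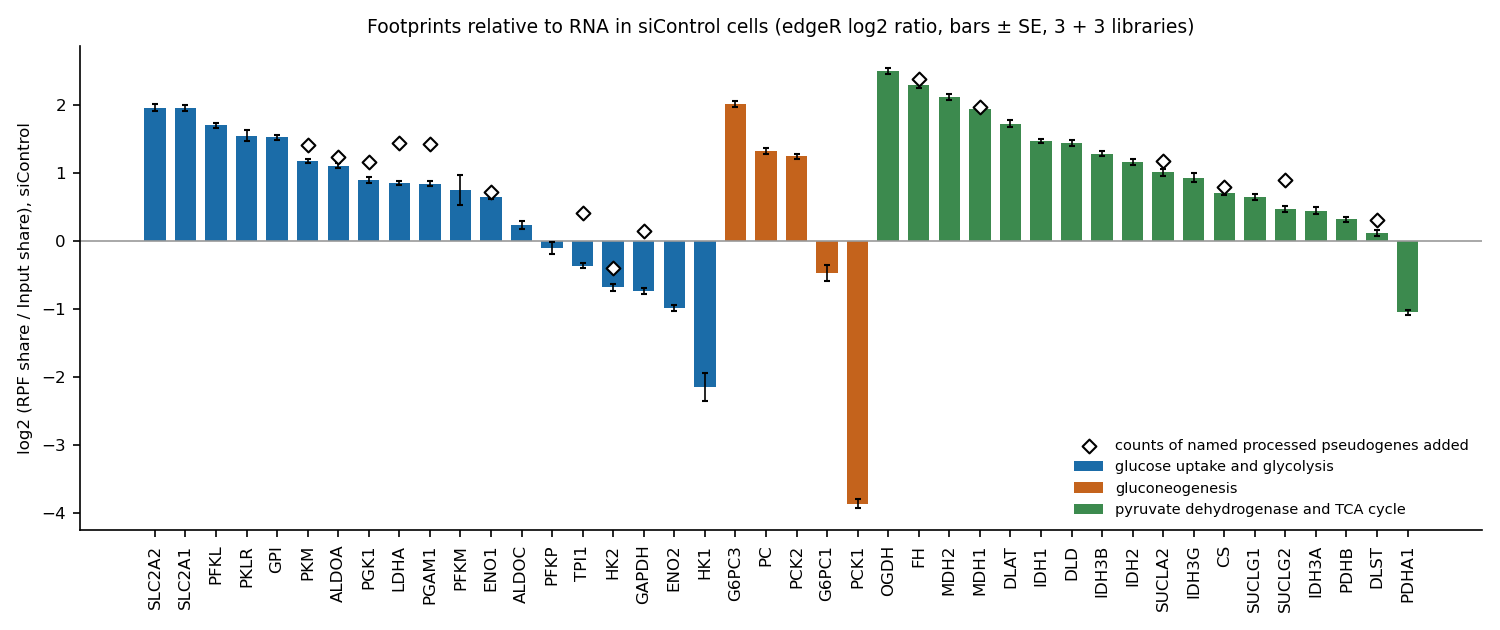
Log2 ratio of the RPF share to the Input share in siControl for the 42 tested members, with bars for the edgeR estimate and whiskers for its SE (3 libraries of each kind). Diamonds show the estimate after the counts of named processed pseudogenes were added to the gene, which turned GAPDH from -0.74 to 0.14 and TPI1 from -0.36 to 0.41, while PCK1 stood lowest at -3.86.

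The highest ratios were those of OGDH, FH and MDH2, all enzymes of the cycle, in 16 of 18 settings. With a GC offset SLC2A2, FH and MDH1 were highest, and with a length offset OGDH, PFKL and GPI. OGDH, the E1 component of the oxoglutarate dehydrogenase complex (ENSG00000105953, chromosome 7, 44606572 to 44709066), was at 17.3, 16.0 and 16.4 CPM in siControl Input against 84.7, 82.4 and 83.7 CPM in siControl RPF, replicates 1 to 3. Its log2 ratio was 2.50 ± 0.05 (SE, adjusted p = 1.43e-19, edgeR). FH, fumarase (ENSG00000091483, chromosome 1, 241497603 to 241519761), was at 35.6, 37.4 and 34.5 CPM in Input and 164, 153 and 157 CPM in RPF, a ratio of 2.29 ± 0.05 (SE). MDH2 (ENSG00000146701, chromosome 7, 76048051 to 76067508) was at 78.5, 67.4 and 67.9 CPM in Input and 278, 267 and 280.1 CPM in RPF, a ratio of 2.11 ± 0.05 (SE). In each of the 3 genes every RPF value lay above every Input value. The coding share of the mRNA was 73.2% for OGDH, 85.4% for FH and 46.7% for MDH2.

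PCK1, the cytosolic phosphoenolpyruvate carboxykinase and a classical hormone-controlled gene of the liver (ENSG00000124253, chromosome 20, 57561080 to 57568112), lay at the opposite end. It was at 217, 244 and 224 CPM in siControl Input against 13.2, 16.0 and 13.3 CPM in siControl RPF. The log2 ratio was -3.86 ± 0.07 (SE, adjusted p = 9.20e-21, edgeR), and it ranked 100 from the bottom of 13395 genes and 64 from the bottom of 11773 protein-coding genes. PCK2, which catalyses the same reaction in mitochondria and is at a like RNA level, was at 153, 161 and 154 CPM in Input and 331, 326 and 337 CPM in RPF, a ratio of 1.24 ± 0.04 (SE). Footprints of PCK1 thus made up 2.52% ± 0.180 (SD, n = 2) of the PCK1 and PCK2 sum in RPF TPM, while its RNA made up 47.3%. The siIGF2BP3 libraries gave the same picture, with 2.88%, 2.59% and 2.52% in RPF replicates 1 to 3 and 49.2% ± 1.43 in Input (SD, n = 3). No annotated gene overlaps the PCK1 locus, and 0 of its 29-base coding runs had a copy elsewhere. The coding share of its mRNA was 43.2%. The cause of the low ratio was not tested.

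HK1 and PDHA1 followed, except that ENO2 was lower than PDHA1 with a GC offset and HK1 was not tested at a mean of at least 5 CPM. HK1 (ENSG00000156515, chromosome 10, 69269984 to 69401884) was low throughout, at 4.16, 5.68 and 4.29 CPM in siControl Input against 0.683, 1.05 and 1.26 CPM in siControl RPF, a ratio of -2.15 ± 0.21 (SE). PDHA1, the E1 alpha subunit of pyruvate dehydrogenase (ENSG00000131828, chromosome X, 19343893 to 19361705), was at 269, 262 and 270.4 CPM in Input and 117, 116 and 113 CPM in RPF, a ratio of -1.05 ± 0.03 (SE). It was the 1 member of the TCA group with less RPF than Input, whereas PDHB, the partner subunit, had a ratio of 0.32 ± 0.04 (SE). The PDHA1 locus overlaps MAP3K15 on the opposite strand, and 34.9% of its mRNA is coding. ENO2 (-0.99), GAPDH (-0.74), HK2 (-0.69), G6PC1 (-0.47) and TPI1 (-0.36) were the other members with a called lower ratio, and PFKP (-0.10) was not called, though with a GC offset it was at -0.53 and called (adjusted p = 1.25e-05, edgeR).

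For GAPDH and TPI1 the direction depended on whether counts on named pseudogenes were added to the gene. The 64 named processed pseudogenes of GAPDH held 1389 ± 8.52 CPM in siControl RPF (SD, n = 2), next to 1565 ± 28.9 CPM on GAPDH itself, but 66.7 ± 0.644 CPM in siControl Input (SD, n = 3), next to 2924 CPM. That is 47.0% of the RPF counts on GAPDH and these pseudogenes together, and 2.23% of the Input counts. Which of these reads came from the mRNA of GAPDH was not tested, and adding all of them assigns every one to the gene. With these counts added the ratio of GAPDH was 0.14 and that of TPI1 0.41, both above 0 and called (adjusted p = 0.00116 and 1.02e-09, edgeR). TPI1 pseudogenes took 41.7% of the summed RPF counts and 0.225% of the summed Input counts. For LDHA the shares were 34.0% and 0.521%, for PGAM1 33.4% and 0.594%, for SUCLG2 25.7% and 0.0692%, and for HK2 18.05% and 0.0169%. HK2 remained below 0 with the counts added, at -0.40.

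**Figure D3:**
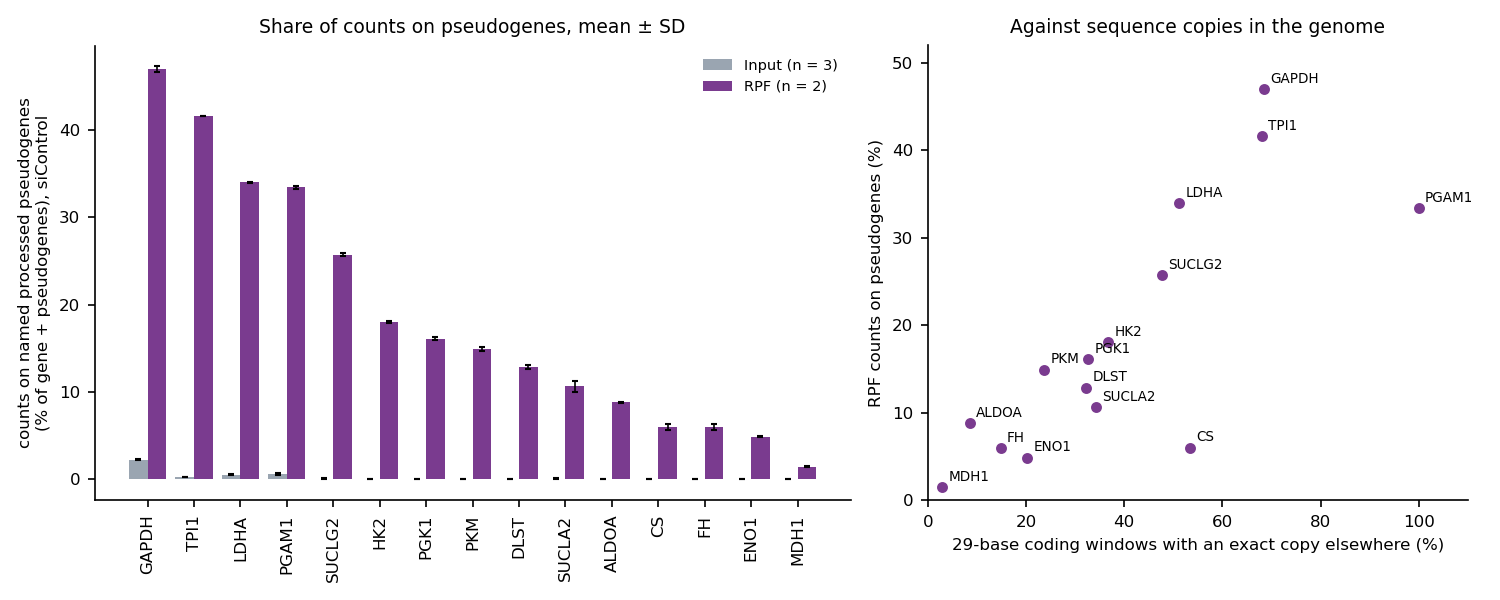
Left, counts on named processed pseudogenes as a percentage of gene plus pseudogenes in siControl Input (grey, n = 3) and siControl RPF (purple, n = 2), mean ± SD, for the 15 members with over 1 CPM there. Right, the RPF percentage against the percentage of 29-base coding runs with an exact copy elsewhere, 1 point per gene. GAPDH and TPI1 are highest on both measures apart from PGAM1, all of whose runs have a copy.

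Knockdown of IGF2BP3 moved the RNA of these genes little. In the 6 Input libraries 1 of 42 members rose and 2 fell, against 4.05% of 14759 tested genes that rose and 1.9% that fell (edgeR quasi-likelihood test, adjusted p under 0.05). The estimates leaned downwards, with 34 of 42 members below 0 and a median log2 change of -0.10, against 0.00 over all tested genes. By group the median was -0.09 in glycolysis, -0.08 in gluconeogenesis and -0.13 in the TCA group, where 16 of 18 members were below 0. In CPM, all siIGF2BP3 Input libraries lay below all siControl Input libraries in 12 members, against 5.73% of tested genes, and above them in 3, against 19.2%. The members' median was below 0 in all 17 settings run, between -0.12 and -0.09. In bulk samples a smaller share of cells expressing a gene and less RNA per cell cannot be told apart.

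GAPDH (ENSG00000111640, chromosome 12, 6533927 to 6538374) was at 2870.5, 3004 and 2897 CPM in siControl Input against 2546, 2725 and 2827 CPM in siIGF2BP3 Input. The groups did not overlap, and the log2 change was -0.16 ± 0.05 (SE, adjusted p = 0.0352, edgeR). SUCLG2 (ENSG00000172340, chromosome 3, 67360460 to 67654614) was at 50.2, 52.6 and 50.03 CPM in siControl against 45.4, 45.7 and 42.6 CPM in siIGF2BP3, a change of -0.24 ± 0.06 (SE, adjusted p = 0.0223, edgeR). Again the groups did not overlap.

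ENO2, the neuronal form of enolase (ENSG00000111674, chromosome 12, 6913745 to 6923698), was the 1 member called higher in Input, of 8 with an estimate above 0. It was at 168, 187 and 185 CPM in siControl Input against 202, 217 and 214 CPM in siIGF2BP3 Input, a change of 0.18 ± 0.05 (SE, adjusted p = 0.0276, edgeR). ENO1, the main enolase, was at 2248, 2347 and 2234 CPM in siControl against 2104, 2179 and 2203 CPM in siIGF2BP3, a change of -0.12 ± 0.04 (SE) that edgeR did not call (adjusted p = 0.103), while DESeq2 and edgeR with a GC offset did. The share of ENO2 in the summed enolase TPM was 8.87% ± 0.425 in siControl Input and 10.7% ± 0.178 in siIGF2BP3 Input (SD, n = 3 each). In RPF it was 3.04% ± 0.0063 (SD, n = 2) in siControl and 3.07%, 3.25% and 3.26% in siIGF2BP3 replicates 1 to 3.

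These 3 calls changed with the libraries used, as did the calls over all genes (879 of 14759 with all libraries). Without siControl Input replicate 3, 0 members were called by edgeR (444 of 15074 genes). Without siControl Input replicate 2 ENO2 alone was called (603 of 15049). Without siControl Input replicate 1 there were 5, all lower, and ENO2 was lost (907 of 15023). Without siIGF2BP3 Input replicate 3 GAPDH alone was called (487 of 14997). Without replicate 1 of that group the calls were SUCLG2 with ENO2 (742 of 14968), and without replicate 2 SUCLG2 with IDH3B (634 of 15003).

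**Figure D4:**
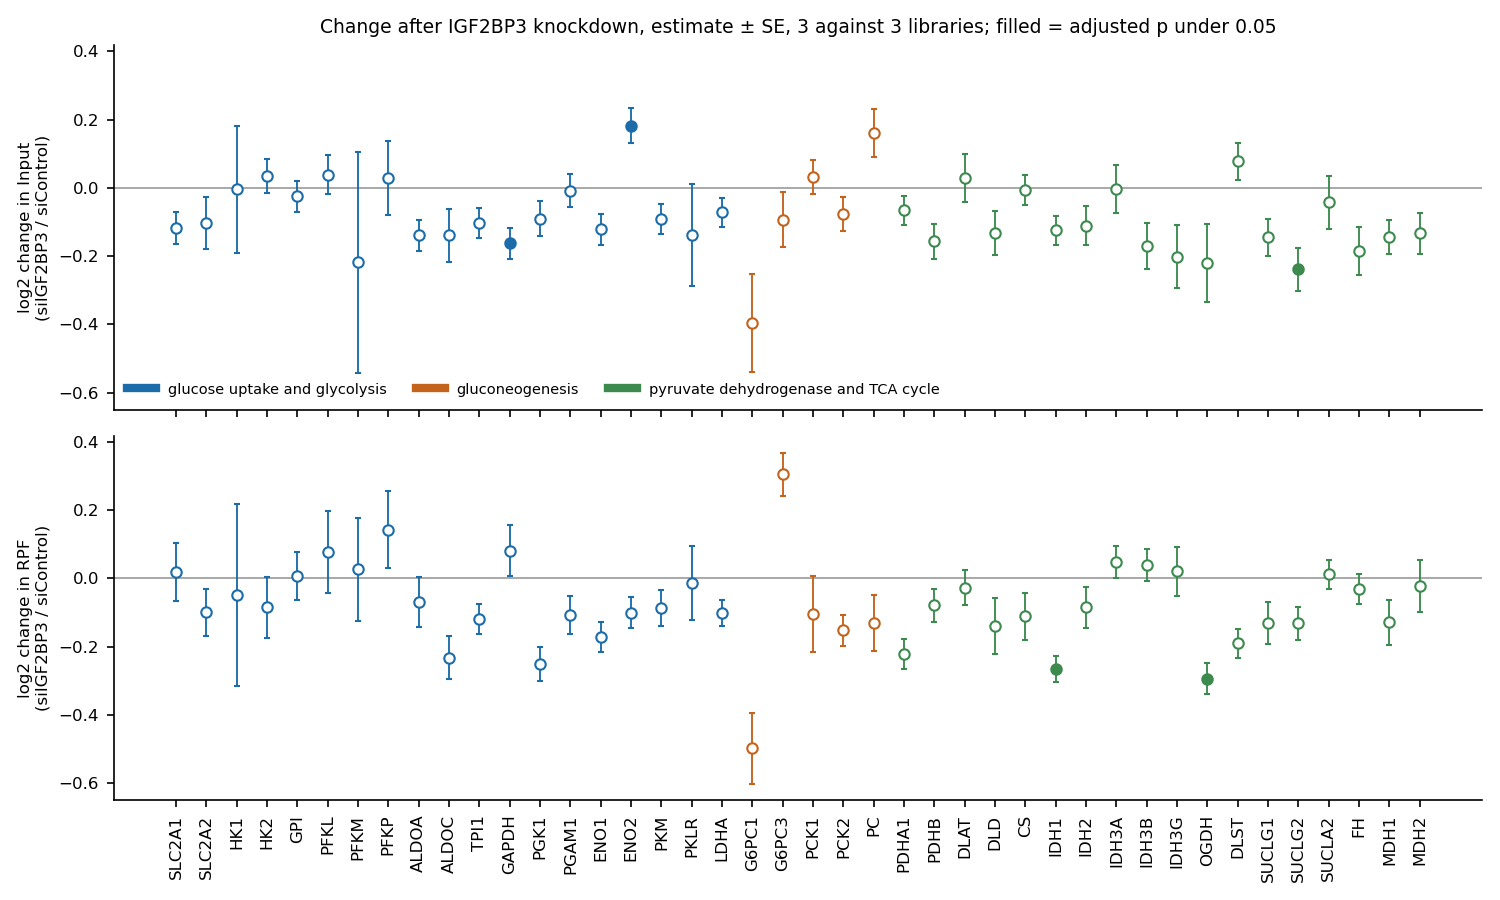
Log2 change of siIGF2BP3 against siControl in Input (top) and RPF (bottom) for the 42 tested members, edgeR estimate ± SE, 3 against 3 libraries, filled where the adjusted p is under 0.05. Of the 42 estimates, 34 lie below 0 in Input and 31 in RPF, and the filled points are GAPDH, ENO2 and SUCLG2 in Input and IDH1 and OGDH in RPF.

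In the RPF libraries 0 members rose and 2 fell, against 1.02% and 0.649% of 20192 tested genes. Both were listed in the TCA group, though IDH1 is the cytosolic NADP-dependent enzyme. Estimates were below 0 in 31 of 42 members, with a median of -0.09 against 0.01 over all tested genes, and the median stayed below 0 in all 18 settings run, between -0.11 and -0.07. In CPM, all siIGF2BP3 RPF libraries lay below all siControl RPF libraries in 17 members and above them in 1. The share over all genes was not counted in RPF, and siControl RPF replicates 2 and 3 were nearly alike. Lack of overlap in RPF is therefore description only.

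IDH1, which makes NADPH in the cytosol (ENSG00000138413, chromosome 2, 208236227 to 208266074), was at 1067, 1067 and 1062 CPM in siControl RPF against 834, 881 and 912 CPM in siIGF2BP3 RPF. The groups did not overlap, and footprints differed by a log2 change of -0.27 ± 0.04 (SE; edgeR adjusted p = 0.0213). In Input IDH1 was at 428, 436 and 424 CPM in siControl against 416, 395 and 409 CPM in siIGF2BP3, also without overlap, at -0.12 ± 0.04 (SE, adjusted p = 0.0865, edgeR). OGDH was at 84.7, 82.4 and 83.7 CPM in siControl RPF against 64.2, 67.4 and 70.4 CPM in siIGF2BP3 RPF, a change of -0.29 ± 0.04 (SE, adjusted p = 0.0253, edgeR). Its siIGF2BP3 Input values were 11.3, 16.0 and 16.6 CPM, and these overlapped the siControl values given above.

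The number of members that passed changed with the libraries used. Without siIGF2BP3 RPF replicate 1, 1 member rose and 21 fell, against 7.97% and 8.57% of tested genes. The riser was G6PC3. IDH1 and OGDH were among the fallers, as were 11 of glycolysis (SLC2A1, HK2, PFKL, ALDOA, ALDOC, TPI1, PGK1, PGAM1, ENO1, PKM and LDHA), G6PC1, PCK2 and PC of gluconeogenesis, and PDHA1, IDH2, DLST, SUCLG2 and MDH2. For SLC2A1 and PFKL the direction also depended on that library, since their RPF estimates were 0.02 and 0.08 with all libraries and -0.09 for each without it. With siControl RPF replicates 2 and 3 summed into 1 library, 0 members were called, against 0.0674% of tested genes. Leaving out any other RPF library also gave 0 members called by edgeR, against 11 to 70 of the 20269 to 20683 genes tested. The estimates of IDH1 and OGDH stayed within -0.28 to -0.24 and -0.32 to -0.28 in all 18 settings, with adjusted p from 2.45e-06 to 0.180 and from 0.000235 to 0.183.

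**Figure D5:**
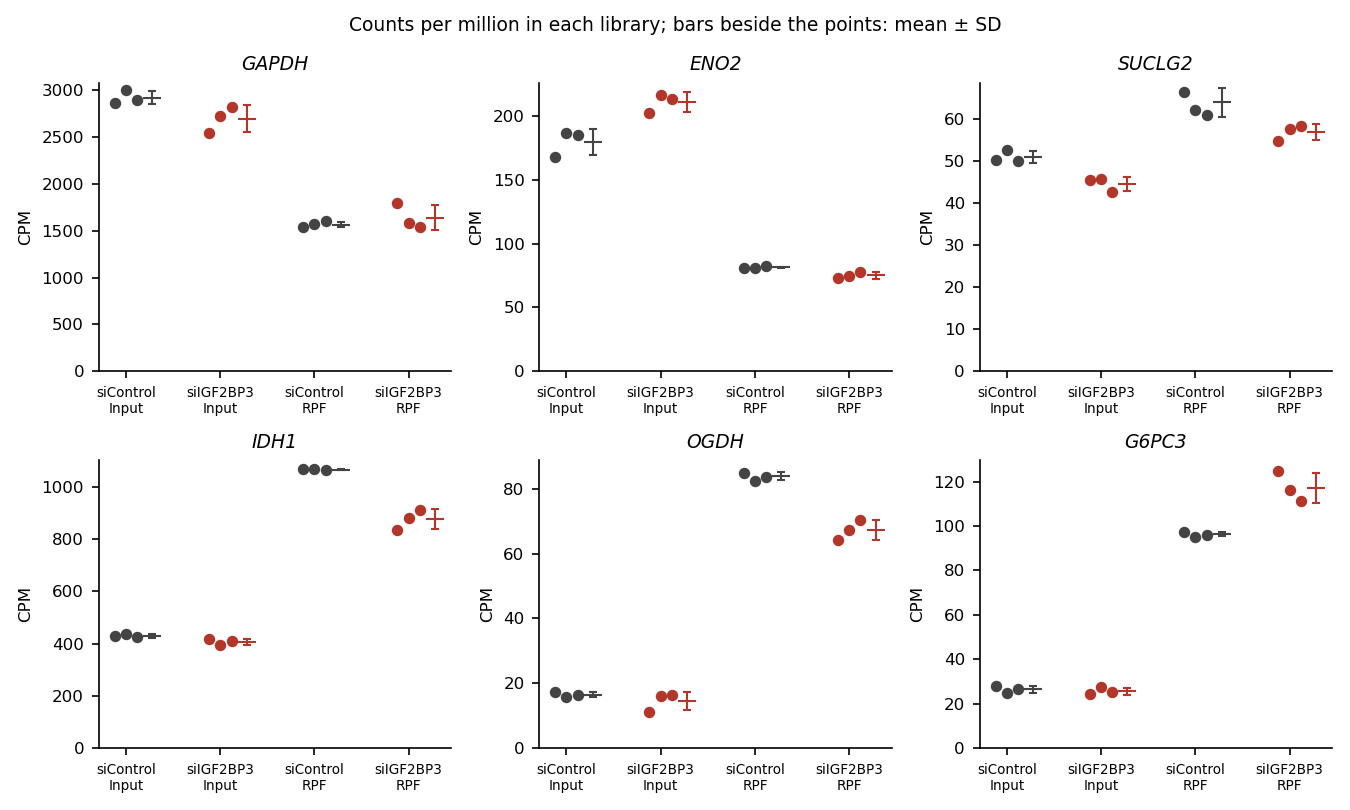
CPM in each of the 12 libraries for the 6 members called in Input, RPF or translational efficiency, siControl in grey and siIGF2BP3 in red, with mean ± SD beside the points (n = 3, but n = 2 for siControl RPF). IDH1 and OGDH were among 17 of 42 members lower in every siIGF2BP3 RPF library than in any siControl RPF library. G6PC3 was the 1 member higher in this way, and the share over all genes was not counted.

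Translational efficiency (TE) was compared as the change in RPF beyond the change in Input, in 1 model over the 12 libraries. Here 1 of 42 members rose and 0 fell, against 0.791% and 1.42% of 13395 tested genes. The members' median was 0.01, with 20 below 0 and 22 above, against 0.00 over all tested genes, and its sign changed between settings.

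The member that rose was G6PC3, a glucose-6-phosphatase of the endoplasmic reticulum (ENSG00000141349, chromosome 17, 44070735 to 44076344). It was at 97.1, 95.2 and 96.0 CPM in siControl RPF against 125, 116 and 111 CPM in siIGF2BP3 RPF, and at 28.1, 24.9 and 26.8 against 24.3, 27.5 and 25.2 CPM in Input. The RPF groups were apart and the Input groups overlapped. Its TE changed by 0.39 ± 0.10 (SE, adjusted p = 0.0365, edgeR) and its RPF by 0.30 ± 0.06 (SE, adjusted p = 0.0691, edgeR). The liver paralogue G6PC1 had RPF values of 4.70, 4.97 and 5.25 CPM in siControl against 2.91, 3.55 and 3.77 CPM in siIGF2BP3. Its estimates of -0.40 ± 0.14 in Input and -0.50 ± 0.10 in RPF (SE) did not pass the test. In RPF TPM the share of G6PC1 in the pair was 6.56% ± 0.431 (SD, n = 2) in siControl and 3.13%, 4.05% and 4.47% in siIGF2BP3 replicates 1 to 3.

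G6PC3 was called in 14 of 27 settings, its estimate staying between 0.33 and 0.46 (adjusted p from 0.00505 to 0.254), and was not called with siControl RPF replicates 2 and 3 summed, where 0 members passed against 1.04% of tested genes. It was also lost, leaving 0 members called by edgeR, without siControl Input replicate 1 or 3, without any 1 of the siControl RPF replicates, without siIGF2BP3 Input replicate 1 or 3, and without siIGF2BP3 RPF replicate 2. In these fits 126 to 193 genes were called, of 13414 to 13537 tested. Without siIGF2BP3 RPF replicate 1, G6PC3 and 4 lower members (HK2, ENO2, PC and DLST) were called, against 4.41% higher and 5.58% lower of all tested genes. ENO2 and DLST, the E2 component of oxoglutarate dehydrogenase, had the lowest adjusted p after G6PC3 with all libraries. Their TE estimates were -0.28 ± 0.08 and -0.27 ± 0.08 (SE, adjusted p = 0.0556 and 0.0701, edgeR). DLST was at 88.1, 97.7 and 94.0 CPM in siControl Input against 98.7, 105 and 102 CPM in siIGF2BP3 Input. In RPF it was at 90.4, 91.1 and 91.0 against 75.9, 79.2 and 80.8 CPM. The groups were thus apart in opposite directions in Input and RPF.

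PCK1, PCK2 and PDHA1, also among the most abundant members of their groups, were not called after knockdown by edgeR with all libraries and no offset. In RPF, PDHA1 was called by DESeq2 and both PDHA1 and PCK2 were called with a GC offset or without siIGF2BP3 RPF replicate 1. PCK1 was at 228, 252 and 243 CPM in siIGF2BP3 Input and 14.4, 12.6 and 12.4 CPM in siIGF2BP3 RPF, both overlapping siControl. PCK2 was at 145, 151 and 163 CPM in Input, overlapping siControl, and at 298, 290 and 295 CPM in RPF, below all siControl values, at -0.15 ± 0.05 (SE). PDHA1 was at 259, 265 and 266 CPM in Input and 95.8, 96.7 and 101 CPM in RPF, the latter below all siControl values, at -0.22 ± 0.04 (SE, adjusted p = 0.0589, edgeR).

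A further 53 genes of the same pathways, such as other isoenzymes, regulators of phosphofructokinase, succinate dehydrogenase subunits and carriers, were listed from general knowledge of the routes. In Input 1 of 40 tested genes rose and 2 fell. The riser was PFKFB4, which makes and degrades fructose-2,6-bisphosphate, an activator of phosphofructokinase. It was at 57.7, 70.8 and 69.0 CPM in siControl against 78.5, 83.8 and 85.1 CPM in siIGF2BP3, a change of 0.27 ± 0.07 (SE, adjusted p = 0.0121, edgeR). The fallers were SLC2A3, the glucose transporter GLUT3, and PDHX, a subunit of the pyruvate dehydrogenase complex (-0.16 ± 0.05, SE, adjusted p = 0.0461, edgeR).

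SLC2A3 had a higher Input level per length than either transporter among the 44 members, at 860.0 TPM in siControl against 144 TPM for SLC2A1 and 30.7 TPM for SLC2A2 (means of 3 libraries). It was at 1415, 1546 and 1496 CPM in siControl Input against 1234, 1175 and 1219 CPM in siIGF2BP3 Input, a change of -0.34 ± 0.05 (SE, adjusted p = 2.81e-05, edgeR). In RPF it was at 902, 932 and 929 CPM in siControl against 623, 681 and 710 CPM in siIGF2BP3, a change of -0.44 ± 0.05 (SE, adjusted p = 0.00784, edgeR). It was the 1 of 41 tested genes of this list called in RPF. In TE 1 of 40 was called, PFKFB4, at -0.44 ± 0.10 (SE, adjusted p = 0.0278, edgeR). Without siIGF2BP3 RPF replicate 1, SLC2A3 in RPF was at -0.41 ± 0.03 and PFKFB4 in TE at -0.43 ± 0.09 (SE), both still called, and 1 gene of the list (PDK2) rose and 9 fell in RPF.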

How the data were processed

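Input and RPF libraries of HepG2 cells, 3 per group in 4 groups, were analysed. Per the submitters' processing notes the reads were handled with Cutadapt, STAR and featureCounts on hg38 (versions and the options for strand and shared reads not given in the sources used here). The deposited tables hold an estimated count for each gene. Fractional values made up 31.8 to 33.3% of genes with a count in Input libraries and 63.2 to 66.0% in RPF libraries. They were rounded before testing, which changed library totals by at most 0.0445%. Names came from GENCODE release 44, which matched 58207 of 58721 genes (99.1%).

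Tests used edgeR 4.0.16 in R 4.3.3 (quasi-likelihood, robust, low-count filter, TMM factors, within assay for TE) with Benjamini-Hochberg adjustment over all tested genes at 0.05. Scripts were tested on simulated data. Alternatives used DESeq2 1.42.0, limma 3.58.1 on log2 ratios (pseudocount 0.5), other factors and filters (5 CPM), offsets for length and GC, blocks, added pseudogene counts, summed or omitted libraries. The members and lists were chosen with earlier results of these data known. Library values are given for members called after knockdown, the 2 most abundant per pathway by Input TPM, and the 3 highest and 3 lowest RPF/Input ratios. DLST, G6PC1 and the non-called values of PCK2 and PDHA1 in RPF were added after values were seen. Protein sequences were not used here.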

Additional observations from a re-analysis of the deposited data

How the results depend on the processing

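Counts of called members depended on the setting. In Input 3 members were called, against 879 of 14759 tested genes. DESeq2 gave 6 (704 of 14759 genes) and a GC offset 6 (1050 of 14759). Leaving out 1 library gave 0 to 5, against 444 to 907 genes. In RPF 2 were called, against 336 of 20192 genes. DESeq2 gave 6 (674 of 20192) and a GC offset 11 (1139 of 20192). Summing siControl RPF replicates 2 and 3 gave 0 by edgeR (10 at an unadjusted p under 0.05), against 14 of 20785 genes. Leaving out 1 library gave 0 to 22, against 11 to 3410 genes. In TE 1 was called, against 296 of 13395 genes. DESeq2 gave 2 (381 of 13395) and a mean of at least 5 CPM 3 (332 of 9799). A length offset gave 2 (289 of 13395) and a GC offset 5 (790 of 13395). No filter gave 0, the summed libraries 0 and limma on log2 ratios 0 (8, 7 and 5 at an unadjusted p under 0.05). Over all genes these called 178 of 38887, 141 of 13493 and 0 of 13395. Leaving out 1 library gave 0 to 5, against 126 to 1347 genes. The cause of these changes was not tested. The RPF/Input count in siControl (41 called, against 11933 of 13395 genes) stayed within 37 to 41, with GAPDH at 0.14 and TPI1 at 0.41 once pseudogene counts were added. PFKP, not called there, was at -0.53 and called with the GC offset. In RPF the estimates of SLC2A1, PFKL and MDH2 crossed 0 between settings (-0.09 to 0.07, -0.09 to 0.16 and -0.11 to 0.03). So did those of GAPDH (-0.01 to 0.13), PKLR (-0.14 to 0.06), GPI (-0.08 to 0.05), HK1, PFKM, DLAT, SUCLA2, PCK1 and IDH3G.

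With the replicate number as a block, 4 members were called in Input, 1 in RPF, 0 in TE (9 at an unadjusted p under 0.05) and 41 in the siControl ratio. Over all genes that block called 931 of 14759 in Input, 379 of 20192 in RPF, 227 of 13395 in TE and 11912 of 13395 in the ratio. A block by culture gave 0 members in TE (7 at an unadjusted p under 0.05), against 122 of 13395 genes. Under the replicate block OGDH in RPF (adjusted p = 0.0588, edgeR) and G6PC3 in TE (adjusted p = 0.0529, edgeR) were not called. The labels do not say that equal numbers mark paired libraries. Correlations of deviations from the group means ran from -0.133 to 0.115 over same-numbered libraries. Each siControl RPF library correlated best with its own number in the siIGF2BP3 RPF group (0.115, 0.0653 and 0.0336). The reverse was not examined. This is a hint from the data and not from the design, and between Input and RPF not every library did so. Low counts limit HK1, PFKM, LDHB and FBP1 most.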
